A study of Homo sapiens with 12 samples.

Results

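The 6 genes described here lie side by side on chromosome 1 and are nuclear copies of mitochondrial genes. The members were chosen by symbol and position, as the rows of the count files that map to MTND1P23, MTND2P28, MTCO1P12, MTCO2P12, MTATP6P1 and MTCO3P12. They are 6 of 60649 genes in the files, and all 6 were among the 16683 genes that passed the filter on low counts. Each was compared, library by library, with its parent gene in the mitochondrial genome: MT-ND1, MT-ND2, MT-CO1, MT-CO2, MT-ATP6 and MT-CO3. The rule names neither a value nor a contrast, but it was written with measured counts of these libraries in view, and which of them led to the choice is not recorded. The levels are therefore given as a description, and an adjusted p below places a gene within the fit over all genes without being independent evidence for the choice.

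RNA was sequenced from 12 libraries of SBC3, an established human small cell lung cancer line grown as spheroids. Of 4 groups with 3 libraries apiece, the first was a control and the others received teriflunomide, lurbinectedin or both drugs (the combination). Teriflunomide inhibits dihydroorotate dehydrogenase, a pyrimidine synthesis enzyme of the inner mitochondrial membrane, and lurbinectedin binds DNA and blocks transcription. The labels used here give no dose or time, and do not say that the libraries of a group came from separate cultures. The p-values judge a difference against the spread between these libraries, which may be technical.

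Pieces of mitochondrial DNA have entered the nuclear chromosomes repeatedly during evolution, and most such copies are not thought to make protein. The mitochondrial genes themselves are transcribed from the many copies of the mitochondrial genome and their messengers are very abundant. A short read from a region where copy and parent have the same bases cannot be assigned to either, so counts on a near-identical copy are uncertain, and all counts on the 6 copies below carry that uncertainty. In bulk RNA, a change in RNA per cell and a change in the cells present cannot be told apart.

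The block runs from base 629062 to base 634922 of chromosome 1 (GRCh38, plus strand), a span of 5861 bases, and GENCODE 29 annotates each copy as an unprocessed pseudogene with a single exon. In map order MTND1P23 (ENSG00000225972.1) lies at chr1:629062-629433 and MTND2P28 (ENSG00000225630.1) at chr1:629640-630683. MTCO1P12 (ENSG00000237973.1) lies at chr1:631074-632616, MTCO2P12 (ENSG00000229344.1) at chr1:632757-633438, MTATP6P1 (ENSG00000248527.1) at chr1:633696-634376 and MTCO3P12 (ENSG00000198744.5) at chr1:634376-634922. This is the order of the parents in the mitochondrial genome. A seventh copy in the same block, MTATP8P1 (chr1:633535-633741), is no member, and overlaps MTATP6P1 by 46 bases.

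Aligned with their parents, the copies differed at few bases. MTND1P23 holds only the last 36.5% of MT-ND1, with 2 differences in 349 aligned bases (99.4% identity). MTND2P28 had 17 differences in 1042 bases (98.4%) and MTCO1P12 had 21 in 1543 (98.6%). MTCO2P12 had 14 in 684 (97.95%), of which 2 are gap bases. MTATP6P1 had 10 in 681 (98.5%), and MTCO3P12, which holds the first 69.8% of MT-CO3, had 10 in 547 (98.2%). Of 71 single-base substitutions in the 6 pairs, 66 were transitions. The longest stretch without any difference was 266 bases in MTND2P28, 245 in MTCO1P12, 158 in MTND1P23, 141 in MTATP6P1, 124 in MTCO3P12 and 108 in MTCO2P12. Counted from the first base of MT-ATP6, with the parent's base first, the substitutions in MTATP6P1 are G19A, C129T, A151C, A175G, A192G, A334G, C417T, C534A, C549T and C642T.

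**Figure D1:**
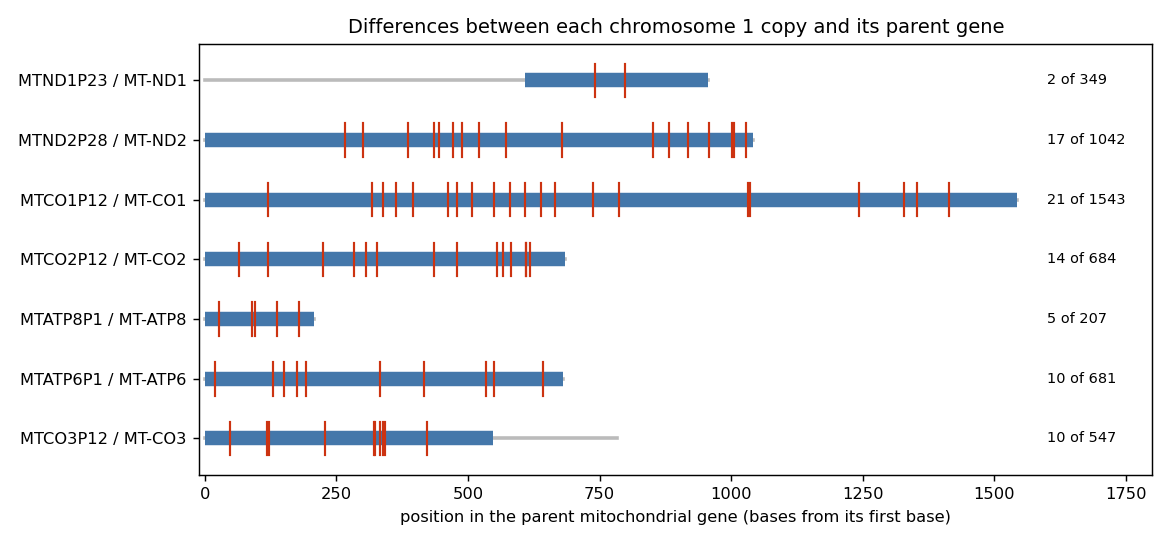
Each row is a copy and its parent (reference sequences), drawn along the parent gene in bases from its first base. Blue marks the aligned stretch, grey the part of the parent that the copy lacks, and red ticks the differing bases, with their number of the aligned positions at the right. MTATP6P1 and MTCO3P12 have the same number of differences, 10, in stretches of 681 and 547 bases.

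The stretches below show how alike copy and parent are where they differ most. For 4 pairs the 120 aligned bases with the most differences and no gap are given 5′ to 3′, from GENCODE 29 transcripts, all on the plus strand of GRCh38, with the differing bases in capitals. MTATP6P1 and MTCO2P12 are shown as the copies with the most counts, and MTCO3P12 and MTATP8P1 as copies with few counts.
MTATP6P1, chr1:633768-633887: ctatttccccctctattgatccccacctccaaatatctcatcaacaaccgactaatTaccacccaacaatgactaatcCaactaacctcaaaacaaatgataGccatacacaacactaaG
MT-ATP6, chrM:8599-8718: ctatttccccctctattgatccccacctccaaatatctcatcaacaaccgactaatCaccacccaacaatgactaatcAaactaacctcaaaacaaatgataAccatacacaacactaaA
MTCO2P12, chr1:632964-633083: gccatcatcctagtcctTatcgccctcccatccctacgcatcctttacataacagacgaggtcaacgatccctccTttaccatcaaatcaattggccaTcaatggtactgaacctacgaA
MT-CO2, chrM:7793-7912: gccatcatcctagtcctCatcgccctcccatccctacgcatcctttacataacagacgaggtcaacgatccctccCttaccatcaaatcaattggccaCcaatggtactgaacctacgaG
MTCO3P12, chr1:634598-634717: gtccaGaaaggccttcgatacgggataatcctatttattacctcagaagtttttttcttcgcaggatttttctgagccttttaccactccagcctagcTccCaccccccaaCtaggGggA
MT-CO3, chrM:9429-9548: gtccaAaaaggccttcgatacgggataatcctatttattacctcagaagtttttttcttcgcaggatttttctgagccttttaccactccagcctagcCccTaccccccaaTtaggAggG
MTATP8P1, chr1:633553-633672: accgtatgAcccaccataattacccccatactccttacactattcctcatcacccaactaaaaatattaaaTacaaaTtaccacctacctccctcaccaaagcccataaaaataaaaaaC
MT-ATP8, chrM:8384-8503: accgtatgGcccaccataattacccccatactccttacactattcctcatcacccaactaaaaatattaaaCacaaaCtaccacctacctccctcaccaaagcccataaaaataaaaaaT
In these windows 4 bases differ for MTATP6P1, 4 for MTCO2P12, 6 for MTCO3P12 and 4 for MTATP8P1.

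Total counts per library ranged from 23206414 to 33222162. Teriflunomide replicate 3 and combination replicate 2 stood apart: genes of the mitochondrial genome took 22.6% and 24.9% of their counts, against 6.26% to 17.05% in the other 10 libraries. Over all tested genes, teriflunomide replicate 3 correlated with the other libraries of its group at 0.973 and 0.975 on log2 CPM (counts scaled by library size and edgeR's TMM factor), and these correlated with each other at 0.992. Of the markers used to check the label, SYP (14.1 to 36.2 CPM) and NEUROD1 (1.502 to 6.51 CPM) were present. INSM1 had 0 counts in all libraries, and NCAM1 and EPCAM had at most 2, so these markers of the cancer type were at or near 0, while YAP1 stood at 60.2 to 343 CPM. Of the markers of other cells, COL1A1 stood at 93.6 to 272 CPM, COL3A1 at 6 to 39 counts, and DCN, PTPRC, CD3E, CD68, PECAM1 and VWF had at most 16 counts in a library.

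Together the 6 copies took 0.0780% ± 0.00391 of the counts in control libraries (SD, n = 3) and 0.180% ± 0.0204 with lurbinectedin. With teriflunomide the 3 libraries were at 0.105%, 0.1055% and 0.488%, and with the combination at 0.164%, 0.325% and 0.153%. Teriflunomide replicate 3 and combination replicate 2 were the highest in their groups, as they were for the mitochondrial genome itself. In control libraries MTATP6P1 made up 60.9% ± 0.254 of these counts, MTCO2P12 23.96% ± 0.585, MTND2P28 11.9% ± 0.787, MTCO1P12 2.48% ± 0.354, MTCO3P12 0.702% ± 0.0230 and MTND1P23 0.0536% ± 0.00750 (SD, n = 3 for each). The order of the copies did not follow that of the parents: MT-CO1, with 32.9% ± 0.194 of the parents' counts, was the most abundant of the 6 parents and its copy the fourth of the 6 copies.

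Per length the contrast between neighbours in the block was large. In control libraries mean levels were 641 CPM per kilobase of counted exon for MTATP6P1, 251.5 for MTCO2P12, 82.0 for MTND2P28, 11.5 for MTCO1P12, 9.19 for MTCO3P12 and 1.03 for MTND1P23. The parents spanned only 3034 (MT-ND2) to 8777 (MT-CO3) on the same scale. By mean CPM, MTATP6P1 ranked 281 of 60649 genes in control libraries, and 35, 105 and 60 with teriflunomide, lurbinectedin and the combination. The teriflunomide mean was raised by replicate 3, at 3939 CPM against 554 and 537 in the others. Replicate 2 raised the combination mean, at 2187 CPM against 842 and 796. MTATP8P1, between MTCO2P12 and MTATP6P1, had 0 to 3 counts per library, while its parent MT-ATP8 had 17919 to 126087. In the libraries with 0 counts, the upper end of the 95% exact binomial interval was a share of 0.00362% to 0.0150% of the pair. No other gene within 50 kb of the block had more than 6 counts in a library.

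MTND1P23 and MTND2P28 derive from genes for core membrane subunits of complex I, which takes electrons from NADH. MTND1P23 was the least counted copy, with 10, 11 and 15 counts in the controls. Teriflunomide gave 15, 18 and 79 counts, lurbinectedin 51, 50 and 30, and both drugs 35, 100 and 25. All lurbinectedin and combination libraries were above all control libraries, and teriflunomide overlapped control. MTND2P28 had control levels of 73.5, 95.3 and 88.1 CPM. Teriflunomide gave 107, 104 and 287 CPM, lurbinectedin 366, 361 and 265 CPM, and both drugs 275, 643 and 210.1 CPM. All libraries of the 3 treated groups were above all control libraries for MTND2P28. With lurbinectedin it rose by 1.95 on the log2 scale (edgeR, SE 0.416, adjusted p = 0.000804), and its parent MT-ND2 by 1.87 (SE 0.505, edgeR adjusted p = 0.00431).

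MTCO1P12, MTCO2P12 and MTCO3P12 derive from genes for the 3 catalytic core subunits of cytochrome c oxidase, which passes electrons to oxygen. MTCO2P12 had control levels of 164, 180.2 and 170.2 CPM. Teriflunomide gave 264, 261 and 1259 CPM, lurbinectedin 524, 527 and 405.5 CPM, and both drugs 441, 1023 and 339 CPM. Teriflunomide replicate 3 was the highest of the 12 libraries and combination replicate 2 the second. MTCO3P12 was low, with 4.76, 5.15 and 5.17 CPM in the controls. Teriflunomide gave 5.86, 6.38 and 11.65 CPM, lurbinectedin 12.3, 9.03 and 7.49 CPM, and both drugs 8.62, 12.7 and 8.36 CPM. Every treated library was above every control library for both copies.

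MTCO1P12 had another pattern. Its control levels were 16.9, 16.05 and 20.25 CPM. Teriflunomide gave 27.6, 33.4 and 23.7 CPM, lurbinectedin 82.6, 59.2 and 96.8 CPM, and both drugs 57.3, 45.7 and 73.3 CPM. Teriflunomide replicate 3 and combination replicate 2, the highest libraries of their groups for the other 5 copies, were the lowest of their groups for MTCO1P12. The lurbinectedin groups did not overlap with control or with teriflunomide.

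MTATP6P1 derives from the gene for subunit a of ATP synthase, which carries the proton path of the enzyme. Its control levels of 407, 465.1 and 437 CPM made it the most abundant copy. Teriflunomide gave 554, 537 and 3939 CPM, lurbinectedin 1141, 1126 and 869 CPM, and both drugs 842, 2187 and 796 CPM. Every treated library was above every control library. Teriflunomide replicate 3 was 7.11 times replicate 1 of its group for this copy, and for MT-ATP6 4.51 times.

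**Figure D2:**
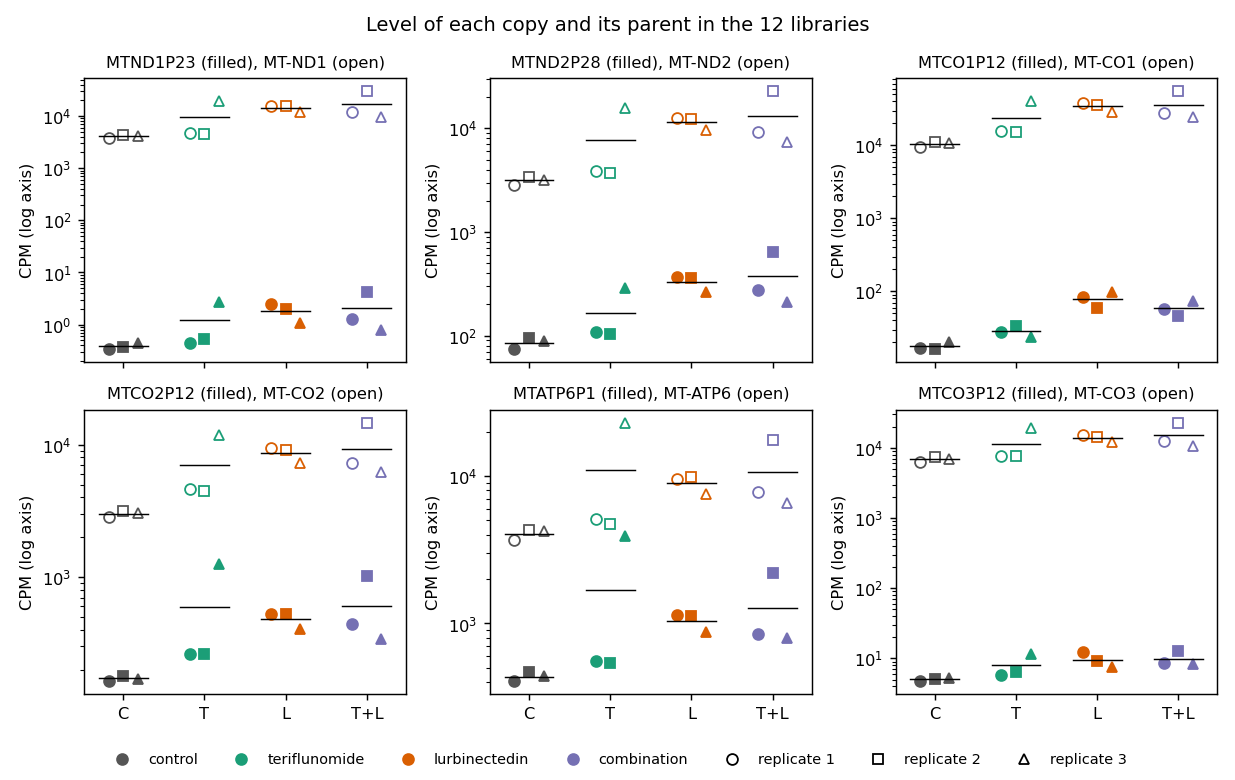
CPM (log axes) of each copy (filled) and its parent (open) in control (C), teriflunomide (T), lurbinectedin (L) and combination (T+L) libraries, with marker shapes for replicates and black lines for group means. In 5 panels the copy repeats the parent's pattern, with teriflunomide replicate 3 and combination replicate 2 highest in their groups. In the MTCO1P12 panel these libraries are the lowest of their groups for the copy and the highest for MT-CO1.

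Whether the counts of a copy moved with those of its parent was asked through the copy's percent of the pair, which is copy counts over copy plus parent counts in the same library and does not depend on how libraries are scaled. For MTATP6P1 it was 9.39% to 10.01% in control, between 10.3% and 10.7% after lurbinectedin and between 9.80% and 11.01% after both drugs. With teriflunomide it was 9.81%, 10.2% and 14.64%, the last in replicate 3 (95% exact binomial interval 14.56% to 14.72%). For MTCO2P12, 10 libraries lay between 5.17% and 5.73%, combination replicate 2 at 6.55% and teriflunomide replicate 3 at 9.55%. For MTND2P28, 11 libraries lay between 2.49% and 2.91%, and teriflunomide replicate 3 was at 1.795% (1.76% to 1.83%). These 3 copies thus took a near-constant part of their pair in 10 libraries, with the highest 1.155 (MTATP6P1), 1.11 (MTCO2P12) and 1.17 (MTND2P28) times the lowest, and a different part in teriflunomide replicate 3. These intervals hold only the error of counting, because the files carry no molecular identifiers and PCR can give several reads of 1 molecule.

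For the copies with few counts the percent was much smaller. MTCO3P12 made up 0.0560% to 0.0839% of its pair and MTND1P23 0.00825% to 0.0159%, where 10 to 100 counts set wide intervals: 0.00433% to 0.0166% in control replicate 1. MTCO1P12 made up 0.145% to 0.332% of its pair in 10 libraries, 0.0832% in combination replicate 2 and 0.0576% in teriflunomide replicate 3, so its highest library was 5.76 times its lowest. The same number of differences between the reference sequences could go with unlike percents of the pair. MTATP6P1 and MTCO3P12 had 10 each, with means over all 12 libraries of 10.55% and 0.0708%. Per 100 aligned bases they had 1.47 and 1.83 differences. MTCO3P12 and MTND1P23 hold only 69.8% and 36.5% of their parents, so their pairs include parent counts from bases that the copy lacks. What sets these percents was not tested.

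**Figure D3:**
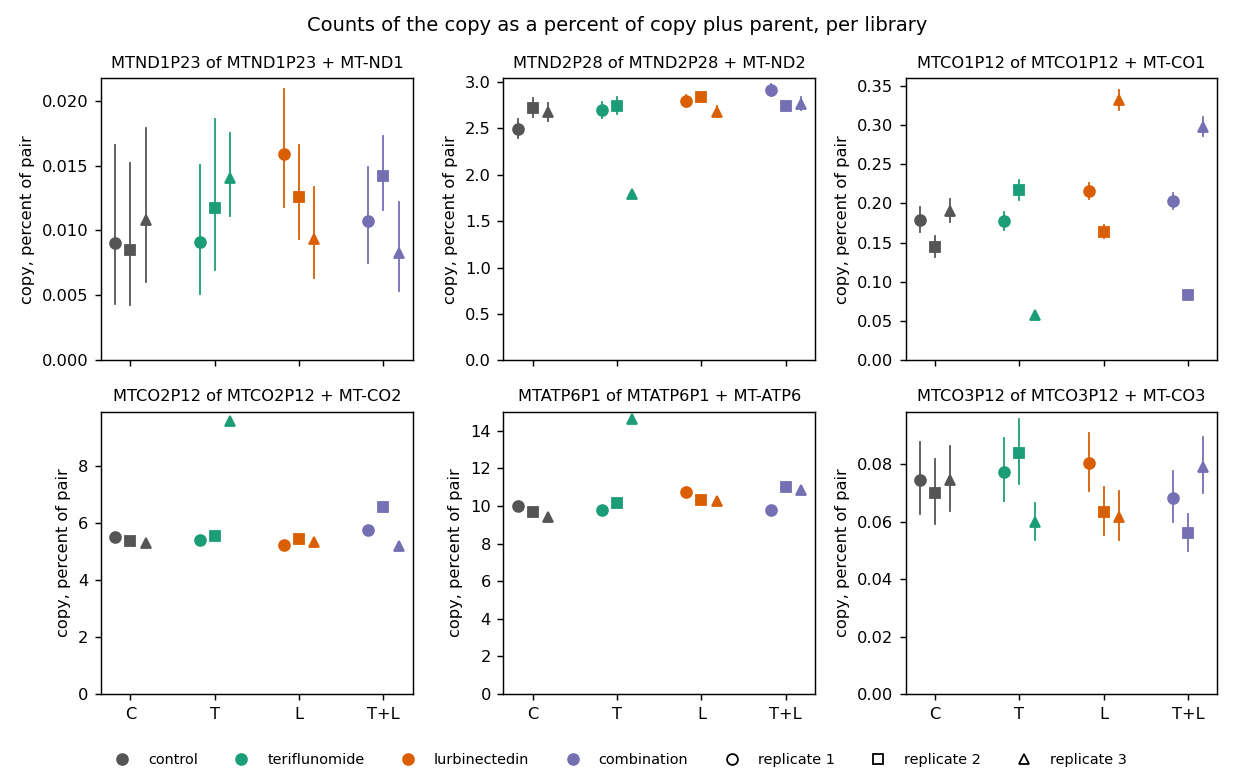
Counts of each copy as a percent of copy plus parent (axes from 0), per library, with 95% exact binomial intervals as bars (smaller than the marker where none shows). Groups are control (C), teriflunomide (T), lurbinectedin (L) and combination (T+L). Teriflunomide replicate 3 lies above the other 11 libraries for MTCO2P12 and MTATP6P1, at 9.55% and 14.64%, and below them for MTND2P28 and MTCO1P12, at 1.795% and 0.0576%.

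Between groups, none of 24 tests of the percent of the pair (6 pairs in 4 comparisons) passed after adjustment, with the smallest Benjamini-Hochberg p at 0.6. An exact two-sided permutation test of 3 against 3 libraries cannot go below 0.1, so these tests could not reach 0.05, and the differences are given as sizes. MTATP6P1 made up 10.4% ± 0.259 (SD, n = 3) with lurbinectedin and 9.69% ± 0.312 in control, a difference of 0.734 points with no overlap between the groups (exact permutation p = 0.1). MTND2P28 made up 2.81% ± 0.0923 with the combination and 2.63% ± 0.121 in control, 0.177 points with no overlap (exact permutation p = 0.1). The other 22 comparisons had overlapping groups. Groups of 3 libraries that do not differ separate by chance at a rate of 0.1 per comparison. The share of the 24 comparisons without overlap was no higher than that. With teriflunomide MTCO2P12 was 1.45 points and MTATP6P1 1.84 points above control (exact permutation p = 0.2 for each), and without teriflunomide replicate 3 these were 0.0938 and 0.290 points.

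Across libraries, correlation with the parent was computed on log2 CPM within the 6 libraries without lurbinectedin and the 6 with it, since lurbinectedin separates the libraries. Copy and parent share each library's scaling factor. Without lurbinectedin MTATP6P1 and MT-ATP6 correlated at r = 0.999 (exact permutation p = 0.00139, adjusted p over 12 relations 0.00417) and rho = 1.0 (exact permutation p = 0.00278, adjusted 0.00833). With lurbinectedin r was 0.994 (exact permutation p = 0.00556, adjusted 0.00833) and rho 0.886 (exact permutation p = 0.0333, adjusted 0.0444). Leaving out the 2 libraries farthest from the median of the parent gave r = 0.971 and 0.982. MTCO2P12 and MTND2P28 had r of 0.993 and 0.992 without lurbinectedin (exact permutation p = 0.00139 and adjusted 0.00417 for each; rho = 1.0, exact permutation p = 0.00278, adjusted 0.00833) and 0.988 and 0.997 with it (exact permutation p = 0.00417, adjusted 0.00714; rho = 0.943, exact permutation p = 0.0167, adjusted 0.025). Without the 2 farthest libraries the 4 values were 0.998, 0.993, 0.959 and 0.978. Each of these correlations pools 2 treatment groups, so a difference between the groups enters r, and 3 libraries in a group are too few to test it within one.

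For MTCO3P12 r was 0.979 (exact permutation p = 0.00278, adjusted 0.00667; rho = 0.943, exact permutation p = 0.0167, adjusted 0.025) without lurbinectedin and 0.842 (exact permutation p = 0.0125, adjusted 0.0167; rho = 0.943, exact permutation p = 0.0167, adjusted 0.025) with it. Over the 4 remaining libraries r was 0.782 and 0.916. For MTND1P23 r was 0.988 (exact permutation p = 0.0167, adjusted 0.02; rho = 0.714, exact permutation p = 0.136, adjusted 0.163) without lurbinectedin and 0.963 (exact permutation p = 0.00139, adjusted 0.00417; rho = 1.0, exact permutation p = 0.00278, adjusted 0.00833) with it. The former fell to 0.307 without teriflunomide replicate 3 and control replicate 1 and so rests on these libraries, and the latter was then 0.958.

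MTCO1P12 and MT-CO1 gave r = 0.443 (exact permutation p = 0.428, adjusted 0.428; rho = 0.6, exact permutation p = 0.242, adjusted 0.264) without lurbinectedin. With lurbinectedin r was -0.57 (exact permutation p = 0.256, adjusted 0.279; rho = -0.257, exact permutation p = 0.658, adjusted 0.658). Without the 2 farthest libraries r was 0.894 over control replicates 2 and 3 and teriflunomide replicates 1 and 2, and 0.0124 over the 4 with lurbinectedin. A relation between MTCO1P12 and its parent was not detected on this scale. With the library size as the only scaling, r with lurbinectedin was -0.828 (exact permutation, adjusted p = 0.0417).

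**Figure D4:**
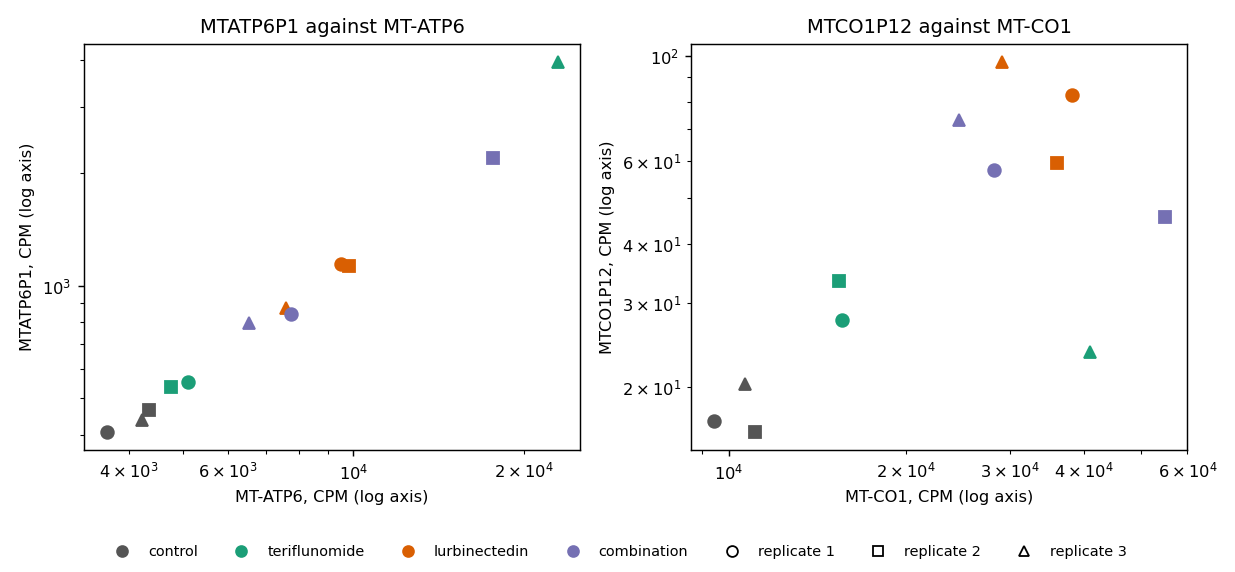
CPM of MTATP6P1 against MT-ATP6 and of MTCO1P12 against MT-CO1 in the 12 libraries (log axes, colours for groups, shapes for replicates). MTATP6P1 rises with its parent from 407 to 3939 CPM, and MTCO1P12 is at 23.7 and 45.7 CPM in the libraries with the highest MT-CO1, teriflunomide replicate 3 and combination replicate 2.

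The contrast of lurbinectedin with control asks how the drug alone changed counts on the copies relative to the other genes of a library. The counts give no amount of RNA per cell, so a rise here is a rise relative to the other genes. Genes were called where edgeR's quasi-likelihood test gave an adjusted p (Benjamini-Hochberg, all tested genes) under 0.05. Of the 6 copies, 5 were called higher, where 71.6% of all tested genes were called and 36.0% called higher, and all 6 lay above control in every library (42.4% of all genes). MTCO1P12 had the smallest p of the 6 and rose by 2.165 on the log2 scale (SE 0.2101, edgeR adjusted p = 5.20e-07), from 17.7 ± 2.23 to 79.5 ± 19.0 CPM. MT-CO1 rose by 1.73 (SE 0.359, edgeR adjusted p = 0.000634). MTND1P23 changed by 2.22 (edgeR adjusted p = 0.0189), MTCO2P12 by 1.5 (0.0194) and MTCO3P12 by 0.93 (0.00624). MTATP6P1 was not called, at 1.26 (SE 0.613, edgeR adjusted p = 0.0795), nor was MT-ATP6, at 1.14 (SE 0.503, edgeR adjusted p = 0.0559). The median log2 fold change was 1.72 over the copies, 1.62 over the 6 parents and 0.05 over all genes. Markers of the label and of other cells moved in the same contrast: YAP1 fell by 1.92 on the log2 scale (edgeR adjusted p = 1.28e-07), COL1A1 fell by 1.32 (2.54e-08), NEUROD1 fell by 1.31 (0.000151), and SYP rose by 0.88 (4.21e-06). Markers with few counts moved as well: CHGA (0 to 18 counts per library) rose by 2.74 (edgeR adjusted p = 0.00108). COL3A1 (6 to 39 counts) fell by 1.04 (0.0142) and PECAM1 (0 to 16 counts) fell by 4.37 (0.000105). All these markers moved in the same directions with the combination, and their part in the counts on the copies was not tested. Without control replicate 1, MTND1P23 (edgeR adjusted p = 0.0525) and MTCO2P12 (0.05455) missed the threshold and 3 copies were called. MTCO2P12 also missed it without control replicate 3 (edgeR adjusted p = 0.05096) and MTND1P23 without lurbinectedin replicate 1 (0.0628), while MTATP6P1 passed it in a fit of these 2 groups alone (2.44e-10). The fits with 1 library left out called 11118 to 11285 genes in all.

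The contrast of teriflunomide with control called none of the 6 copies (edgeR adjusted p under 0.05), where 6.01% of all genes were called and 3.88% called higher. At an unadjusted p under 0.05 there were 5 copies, and 4143 of all 16683 genes. DESeq2 called 1, MTCO1P12, of the 5 copies to which it gave an adjusted p, and 1907 genes in all. The median log2 fold change was 1.29 over the copies, 1.22 over the parents and 0.03 over all genes, and 5 copies lay above control in every library (20.1% of all genes). For 5 copies these sizes depended on teriflunomide replicate 3. MTATP6P1 was at 1.94 on the log2 scale (SE 0.625, edgeR adjusted p = 0.0800) and at 0.32 without that library. MTCO2P12 had 1.79 and then 0.61, MTND1P23 1.62 and then 0.34, MTND2P28 0.96 and then 0.30, and MTCO3P12 0.66 and then 0.28. MTCO1P12 went the other way, from 0.67 (SE 0.205, edgeR adjusted p = 0.0677) to 0.78, and was then called (edgeR adjusted p = 0.0302). Leaving out replicate 1 or 2 instead, so that replicate 3 weighed more, 2 copies were called, MTCO2P12 and MTATP6P1. The fits with 1 library left out called 216 to 1555 genes in all. Without both teriflunomide replicate 3 and combination replicate 2, a fit chosen after seeing the data, 3 copies were called higher: MTCO1P12 (0.78), MTCO2P12 (0.61) and MTATP6P1 (0.32). That fit called 2757 genes in all. Without the filter on low counts all 6 copies were called, and 1800 genes in all.

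The contrast of the combination with control called all 6 copies higher (edgeR adjusted p under 0.05), where 68.4% of all genes were called and 34.1% called higher, and each lay above control in every library (38.7% of all genes). MTND2P28 rose by 2.13 (SE 0.419, edgeR adjusted p = 0.000453), MTCO1P12 by 1.73 (SE 0.208, 5.195e-06), and MTATP6P1 by 1.55 (SE 0.618, 0.0384). MTND1P23 changed by 2.39 (0.0123), MTCO2P12 by 1.81 (0.00757) and MTCO3P12 by 0.97 (0.00481). The median was 1.77 over the copies, 1.71 over the parents and 0.04 over all genes. Without combination replicate 2, MTND2P28, MTCO1P12 and MTCO3P12 remained called, and MTND1P23 (1.395, edgeR adjusted p = 0.118), MTCO2P12 (1.18, 0.0607) and MTATP6P1 (0.90, 0.229) did not. The fits with 1 library left out called 10559 to 10996 genes in all. MTATP6P1 also missed the threshold without any 1 of the 3 control libraries, with the library size as the only scaling (edgeR adjusted p = 0.05335) and with a block for the replicate number (0.05204).

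The contrast of the combination with lurbinectedin asks what teriflunomide added to lurbinectedin. It called 0 of the 6 copies and 0% of all genes (edgeR adjusted p under 0.05), with 2599 genes at an unadjusted p under 0.05 and 584 called by DESeq2. DESeq2 called 0 copies of the 4 to which it gave an adjusted p, and 1 copy, MTCO1P12, had an unadjusted p under 0.05 (log2 fold change -0.435, SE 0.200, edgeR adjusted p = 0.315). The other 5 had log2 fold changes between 0.045 (MTCO3P12) and 0.31 (MTCO2P12), and all 5 were below 0 without combination replicate 2, from -0.82 (MTND1P23) to -0.17 (MTCO3P12). In the fit without both libraries that stood apart, chosen after seeing the data, 1 copy was called: MTATP6P1 fell by 0.35 on the log2 scale (edgeR adjusted p = 0.0206), and 3640 genes were called in all. No copy was called for the interaction of the drugs (edgeR adjusted p under 0.05), in which 43 genes were, and MTCO1P12 had the smallest p of the copies (log2 value -1.11, unadjusted p = 0.00179, edgeR adjusted p = 0.177). These contrasts share libraries, so their values are set side by side and not compared.

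**Figure D5:**
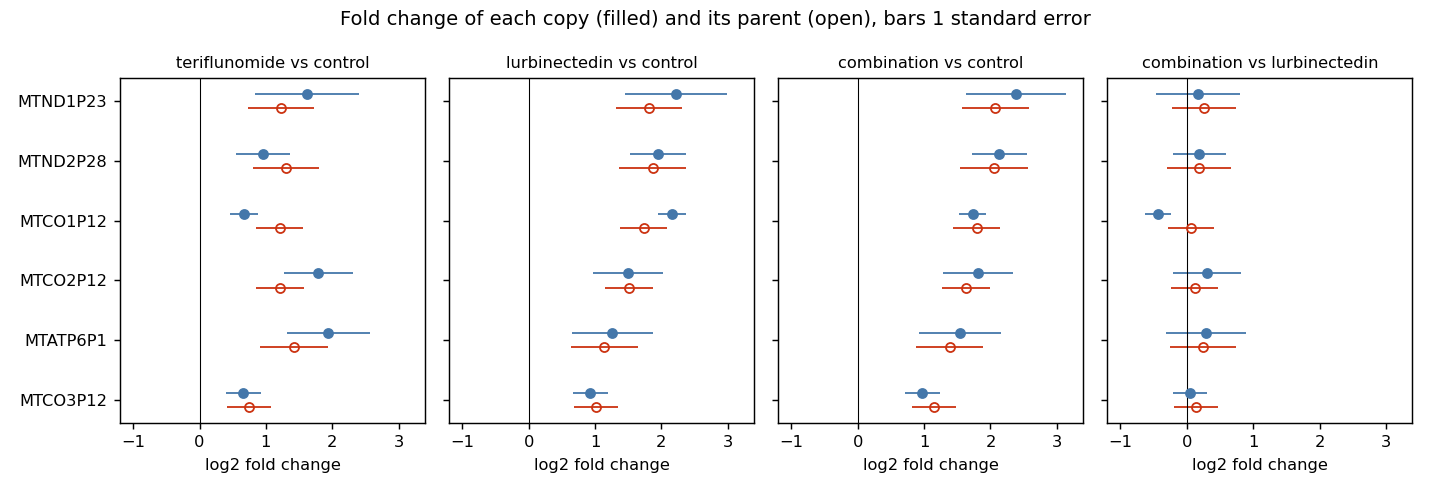
Log2 fold change of each copy (filled blue) and its parent (open red) in the 4 contrasts, with bars of 1 standard error from the edgeR fit. In the contrasts with control every copy and parent lies above 0. Against lurbinectedin MTCO1P12 lies at -0.435 and MT-CO1 at 0.059.

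The 5 genes whose log2 CPM over the 12 libraries was most like that of the summed copies were all in the mitochondrial genome: MT-ATP6 (r = 0.997), MT-ND3 (0.995), MT-ND4 (0.992), MT-ND4L (0.989) and MT-CYB (0.981). MT-ND3, MT-ND4, MT-ND4L and MT-CYB have no annotated copy in the block. This is a description over 12 libraries that share scaling factors. The sum is mostly MTATP6P1, with 60.9% of the copies' counts in control libraries, and does not stand for each copy. For MTCO1P12 the 5 most similar genes were all nuclear. Of the 13 protein genes of the mitochondrial genome, 7 were called higher with lurbinectedin, 11 with the combination and 0 with teriflunomide (edgeR adjusted p under 0.05), and none was called lower. Of all genes, 36.0%, 34.1% and 3.88% were called higher in these contrasts. With teriflunomide all 13 had an unadjusted p under 0.05, as had 4143 of all 16683 genes. The 2 ribosomal RNAs are not in the block: MT-RNR1 rose by 2.26 on the log2 scale with lurbinectedin (edgeR adjusted p = 1.99e-06) and by 1.98 with the combination (7.84e-06), and MT-RNR2 by 1.90 (0.000265) and 1.94 (0.000247). With teriflunomide MT-RNR2 was at 0.71 (SE 0.344, edgeR adjusted p = 0.216) and MT-RNR1 at -0.02 (SE 0.239, edgeR adjusted p = 0.965).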

How the data were processed

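RNA of 12 libraries, made with an mRNA library kit per the labels, was sequenced. Raw counts per gene were deposited by the authors, 1 file per library, with no normalization. Per the submitters' processing notes, fastp 0.23.2, STAR 2.7.9 and featureCounts of Subread were used with build hg38, and the file headers have the layout of featureCounts. Annotation release, strand use and the treatment of multi-mapping or overlapping reads are not given in the sources used here. All 14 genes of the 7 pairs had the coordinates of GENCODE 29.

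Counts were fitted with edgeR 4.0.16 (R 4.3.3; filterByExpr, TMM, robust quasi-likelihood, 1 mean per group, 12 libraries, biological coefficient of variation 14.5%), with Benjamini-Hochberg adjustment over 16683 genes. The fit was tested on simulated data with 200 changed genes. CPM are scaled by TMM, and log2 CPM use a prior count of 0.5. Copies and parents were aligned locally with Biopython 1.88. Permutation tests were exact and two-sided (SciPy 1.17.1). Alternatives were other scalings and filters, DESeq2 1.42.0, only the groups compared, a replicate block, each library left out, a log2 ratio or counts per length for the pairs, linear CPM, and, added after seeing the data, a fit without both libraries that stood apart. The members, lists and rules were chosen with earlier results of these data known. The genes named are the members, their parents, the pair MTATP8P1 and MT-ATP8, other mitochondrial genes, the 5 genes most like the summed copies, flanking genes and the 5 most abundant other nuclear copies. Some items are not reported here.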

Additional observations from a re-analysis of the deposited data

How the results depend on the processing

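Genes called with teriflunomide, 1002 in the fit reported, were 265 with the library size as the only scaling, 1800 without a filter on low counts, 1907 with DESeq2, 283 with only the groups compared, 216 to 1555 with 1 library left out, and 2757 without teriflunomide replicate 3 and combination replicate 2 (chosen after seeing the data). Of the 6 copies, none called in the fit reported, the unfiltered fit called 6, DESeq2 1, the fits with 1 library left out 0 to 2, and that without both libraries 3. With 1 library left out, lurbinectedin gave 3 to 5 copies called among 11118 to 11285 genes, and the combination 3 to 6 among 10559 to 10996. For the combination against lurbinectedin, where 0 genes were called, there were 612 without the filter, 584 with DESeq2, 94 with only the groups compared, 0 to 259 with 1 library left out, and 3640, with 1 copy, without both libraries. The cause was not tested.

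For the combination against lurbinectedin, log2 fold changes reversed without combination replicate 2, and without both libraries in parentheses: MTND1P23 -0.818 (-0.812), MTND2P28 -0.444 (-0.444), MTCO2P12 -0.314 (-0.314), MTATP6P1 -0.35 (-0.35) and MTCO3P12 -0.171 (-0.162). Their values with 1 library left out ran up to 0.576, 0.473, 0.592, 0.534 and 0.268, and without lurbinectedin replicate 3 MTND1P23 was at -0.108 and MTCO3P12 at -0.106. With the library size as the only scaling the median of all genes moved to -0.18 with lurbinectedin and -0.13 with the combination, and the share of called genes that were higher from 50.2% to 39.2% and from 49.8% to 41%. No copy changed direction under that scaling.

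No pairing by replicate number was seen: deviations of same-numbered libraries correlated at -0.336 to 0.111, with 1 of 18 pairs over 0.1. Libraries with other numbers correlated at -0.162 to 0.281, with 5 of 36 pairs over 0.1. Whether libraries shared a batch was not tested. With a replicate block 415 genes were called with teriflunomide, and MTATP6P1 missed the threshold with the combination, at 1.53 (adjusted p = 0.05204). The block changed no other call of a copy.

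Leaving out 1 library, the difference in the copy's percent of its pair changed sign in 17 of 144 fits. With teriflunomide it ran from -0.386 to 0.0895 points for MTND2P28, -0.05368 to 0.02605 for MTCO1P12 and -0.004339 to 0.00765 for MTCO3P12. With lurbinectedin it ran from -0.1116 to 0.001784 for MTCO2P12. With the combination it ran from -0.02812 to 0.07919 for MTCO1P12 and -0.01092 to 0.0007012 for MTCO3P12. For the combination against lurbinectedin it ran from -0.003164 to 0.0001077 for MTND1P23, -0.01702 to 0.06908 for MTND2P28, -0.09399 to 0.01333 for MTCO1P12, -0.105 to 0.4993 for MTATP6P1 and -0.006376 to 0.005284 for MTCO3P12.

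Without the 2 libraries farthest from the median, 4 remained, too few to pass a test. Correlations with the parent were then 0.307 (MTND1P23), 0.993 (MTND2P28), 0.998 (MTCO2P12), 0.971 (MTATP6P1) and 0.782 (MTCO3P12) without lurbinectedin. With it they were 0.958, 0.978, 0.959, 0.982 and 0.916, and 0.0124 for MTCO1P12. Scaled by library size alone, MTCO1P12 passed among the libraries with lurbinectedin at -0.828 and MTCO3P12 did not, at 0.654. Counts of 10 to 100 per library limit MTND1P23, and reads shared by copy and parent limit all 6.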

Other observations

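Other nuclear copies were sought by symbols that end in P and a number, and copies named in another way were not counted. Besides the 6 members, the files hold 398 such nuclear pseudogenes of mitochondrial genes, among them MTATP8P1, which lies in the block. Of these, 81 had at least 1 count and 2 passed the filter on low counts, and together they held 0.311% of all counts on such copies, against 99.7% on the 6 copies of chromosome 1. The most abundant were MTND4P12 on chromosome 5 (18 to 234 counts per library, highest in teriflunomide replicate 3) and MTCO1P40 on chromosome 17 (22 to 83, highest in combination replicate 2). MTND5P11 and MTND6P4, next to MTND4P12, had 1 to 21 and 1 to 4 counts, and MTND2P40 on chromosome 19 had 0 to 6.

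For single copies the most similar gene was also sought, which was decided after the values were seen. For MTATP6P1 it was MT-ND4L (r = 0.999 over 12 libraries), for MTCO2P12 MT-ATP6 (0.991), for MTND2P28 MT-RNR2 (0.993), for MTND1P23 MT-CO3 (0.987) and for MTCO3P12 another copy, MTND1P23 (0.971). Nuclear genes were among the 5 most similar also for MTND2P28 (BCAS2, 0.989, and MRFAP1L1, 0.985), MTCO2P12 (PAPOLG, 0.983) and MTND1P23 (UQCRB, 0.979). For MTCO1P12 the 5 most similar genes were all nuclear: MGRN1 (0.987), PDPR (0.98), FBXO21 (0.978), CENPW (0.978) and LPCAT3 (0.976). These are descriptions over libraries that share scaling factors and fall into groups by treatment.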
